A study of Homo sapiens with 2 samples.

Results

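The enzymes that make and break down heme were followed in a human pancreatic cancer cell line with and without dihydroartemisinin (DHA), the active metabolite of the artemisinin antimalarials. The 9 genes were taken by symbol from a table of 58735 genes. They are 7 synthesis enzymes (ALAS1, ALAD, UROS, UROD, CPOX, PPOX and FECH) and the heme oxygenases HMOX1 and HMOX2. The cells were the SUIT-2 line in a derivative with high metastatic potential, with 1 RNA-seq library from untreated cells (label NC) and 1 from DHA-treated cells. No source used here gives the dose, the exposure time or a vehicle. With 1 library per group there is no replicate check, so "higher" and "lower" below refer to these 2 libraries only, and no p-value was computed.

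Heme is built by a chain of enzymes that starts in the mitochondrion, passes through the cytosol and ends in the mitochondrion, where iron is inserted into protoporphyrin. The first step, made by ALAS1 in most tissues and by ALAS2 in red cell precursors, sets the rate of the chain, and heme itself holds ALAS1 down. Heme oxygenases cut the ring open and release iron, carbon monoxide and biliverdin. HMOX1 is the form induced by heme, metals and oxidants, and HMOX2 is the form present at a steady level. Artemisinins are activated by ferrous iron and heme.

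Counted reads came to 15452609 without DHA and 14521101 with it. Epithelial markers listed for the line (KRT8, KRT18, KRT19, EPCAM, MUC1, TSPAN8 and CDH1) were all well above 0 in the untreated library. After DHA 7 of 7 were at least 2-fold lower, with summed reads of 52081 and 19198, mostly from KRT8 and KRT18. The difference ranged from 2.34-fold lower for KRT18 to 37.6-fold lower for CDH1 (933 and 23 reads). By the rule of size given below, 10.3% of all genes tested were called lower. How far the shift in these markers bears on the heme genes was not tested. Of 9 erythroid markers, 7 had no read in either library and none exceeded 3 reads, with ALAS2, HBB and GATA1 at 0. Of 7 retina markers, checked because the protocol text names that tissue, 4 had no read, CRX among them, while RPE65 had 96 and 74 reads and OPN1SW 61 and 49. Of 5 macrophage markers, 3 including PTPRC had no read, and the highest count was 22. Of 5 fibroblast markers COL1A1 had 83 and 11 reads, and COL1A2, COL3A1 and DCN had none.

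Promoter sequences of the members were searched for short motifs. RefSeq promoter windows on GRCh38.p14, each 300 bases with 250 before and 50 after an annotated start, matched 7 of the 9 members by symbol, with 10 windows. HMOX1 and UROS had no entry in the table, so their promoters were not searched. ALAS1 and HMOX2 are shown because their ratios lay on the higher side, UROD because it lay on the lower side, and CPOX because it is the other mitochondrial enzyme gene on the higher side. All are written 5′ to 3′ on the strand of the gene. Capitals mark matches, on both strands, to 6 motifs. These were the NRF1 core CGCNTGCGC, the antioxidant response element core TGACNNNGC, the amino acid response element core TGATGNAA, the E-box CACGTG, the GATA site AGATAA and the GC box GGGCGG. Overlapping matches of 1 motif on both strands were counted once, and different motifs did not overlap in the windows shown. Positions are counted from the annotated start, with negative numbers before it.
ALAS1, chr3:52197833-52198132, plus strand: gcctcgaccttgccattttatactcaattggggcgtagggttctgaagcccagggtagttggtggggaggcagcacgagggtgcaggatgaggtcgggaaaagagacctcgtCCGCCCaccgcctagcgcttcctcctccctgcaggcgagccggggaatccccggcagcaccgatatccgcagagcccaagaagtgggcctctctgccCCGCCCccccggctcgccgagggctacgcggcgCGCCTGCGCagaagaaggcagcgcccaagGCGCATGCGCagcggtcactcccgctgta
HMOX2, chr16:4474486-4474785, plus strand: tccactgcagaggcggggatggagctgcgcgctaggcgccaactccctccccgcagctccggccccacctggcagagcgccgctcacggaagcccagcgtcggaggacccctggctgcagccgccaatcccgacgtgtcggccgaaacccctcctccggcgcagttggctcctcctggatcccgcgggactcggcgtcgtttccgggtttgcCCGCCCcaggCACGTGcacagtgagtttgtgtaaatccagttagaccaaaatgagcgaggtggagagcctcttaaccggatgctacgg
UROD, chr1:45012004-45012303, plus strand: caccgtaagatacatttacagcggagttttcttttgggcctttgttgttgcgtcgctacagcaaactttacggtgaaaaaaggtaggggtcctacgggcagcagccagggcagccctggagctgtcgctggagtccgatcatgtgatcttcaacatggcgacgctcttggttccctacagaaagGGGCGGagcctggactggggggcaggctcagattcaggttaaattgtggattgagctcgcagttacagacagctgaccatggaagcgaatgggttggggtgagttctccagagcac
CPOX, chr3:98593562-98593861, minus strand: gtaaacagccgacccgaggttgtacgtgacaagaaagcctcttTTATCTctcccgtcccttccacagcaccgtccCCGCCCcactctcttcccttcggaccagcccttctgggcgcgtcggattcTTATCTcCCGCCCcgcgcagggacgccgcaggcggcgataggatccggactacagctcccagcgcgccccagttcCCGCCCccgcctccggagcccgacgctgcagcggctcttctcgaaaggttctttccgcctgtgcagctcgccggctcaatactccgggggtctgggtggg

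The ALAS1 window held 2 NRF1 core matches, CGCCTGCGC beginning at -8 and GCGCATGCGC, which matches on both strands, beginning at 22. NRF1 is a transcription factor of nuclear genes for mitochondrial proteins, and 7.52% of 35116 windows held such a match. Of the 10 member windows searched, only that of ALAS1 did. HMOX2 had the only E-box, beginning at -28, a match found in 7.26% of all windows. CPOX had 2 GATA sites, at -207 and -125, and the second PPOX window had 1, against 10.3% of all windows. The antioxidant response element core, bound by NFE2L2 with small MAF proteins, occurred in the FECH window alone among the 10 searched, with HMOX1 not searched (13.3% of all windows), and the amino acid response element core in none (3.62%). GC boxes are common, in 45% of windows, and were present in 8 of the 10. A match describes the letters only.

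Differences were read by a rule of size. To be called, a gene needed 50 or more reads in either library, a change of 2-fold or more from untreated to DHA, and a 95% counting interval that left out 1. Counts were first put on a common scale (TMM, a trimmed mean of log ratios between libraries), and 0.5 reads were added. All 9 members had enough reads. Of them 2 were called higher, both heme oxygenases, and 0 lower. Over all 12064 genes with enough reads, 6.72% were called higher and 10.3% lower. The members were chosen with earlier results of these data known, so their counts describe these 9 genes alone. None of the 7 synthesis enzymes passed in either direction. Their median log2 ratio was -0.15, beside 0.04 over all genes tested, and it covered a spread from -0.79 to 0.90. In bulk RNA, fewer cells that express a gene and less of its RNA per cell cannot be told apart.

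**Figure D1:**
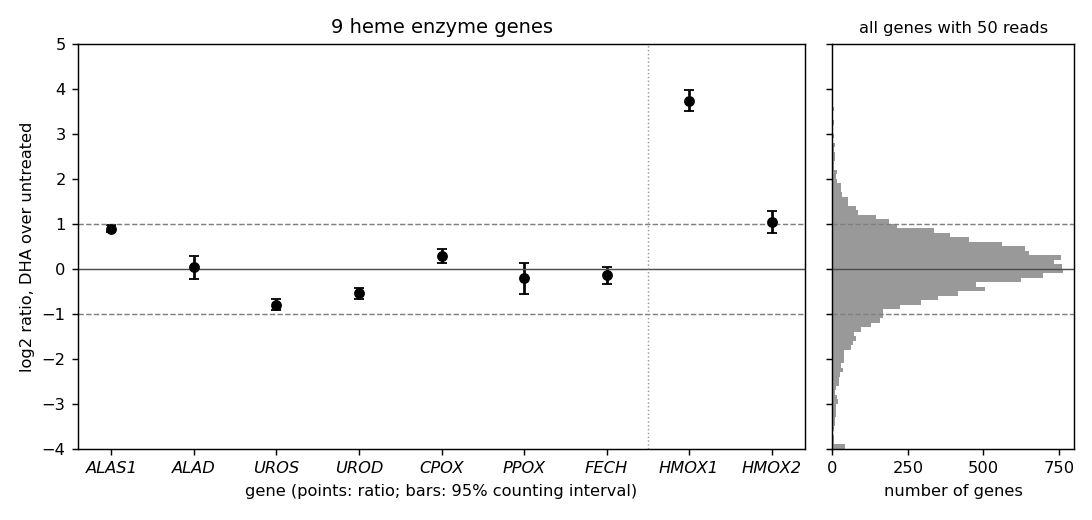
Left, log2 ratio of DHA to untreated for the 9 heme enzyme genes in pathway order, with 95% counting intervals; dashed lines mark 2-fold. Right, the 12064 genes with 50 or more reads in either library on the same axis, with values beyond the axis placed in the end bins. HMOX1 at 3.73 stands apart from the other members, and the synthesis enzymes lie between -0.79 and 0.90.

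ALAS1 (ENSG00000023330, GRCh38 chromosome 3, 52198086 to 52214327, plus strand) makes 5-aminolevulinate from glycine and succinyl-CoA in the mitochondrial matrix. Untreated cells gave 1866 reads and DHA-treated cells 3289, or 121 and 226 CPM (counts per TMM-adjusted library size). The DHA library was higher by a ratio of 1.86 (95% counting interval 1.76 to 1.97). On the log2 scale that is 0.90, and 91.4% of all tested genes had a smaller ratio. The interval lies above 1, but the ratio did not reach 2-fold, so ALAS1 was not called. With a smooth trend over exon length and GC taken out it passed, at 1.03 on the log2 scale. An annotated processed pseudogene of ALAS1 had no read in either library.

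The next 3 members work in the cytosol. ALAD (chromosome 9, 113386317 to 113401333, minus strand) joins 5-aminolevulinate into porphobilinogen and is the enzyme inhibited by lead. It had 267 and 259 reads, a log2 ratio of 0.04 (-0.22 to 0.29). That is the middle of all tested genes, and the sign turned under other scalings, down to -0.03. UROS (chromosome 10, 125784980 to 125823285, minus strand) closes the ring to uroporphyrinogen III. Its reads were 1556 without and 850 with DHA, a log2 ratio of -0.79 (-0.92 to -0.67). This was the lowest ratio of the 9 members, and 13.7% of tested genes had a smaller one. UROD (chromosome 1, 45012147 to 45015575, plus strand) removes carboxyl groups to give coproporphyrinogen. It had 1366 and 887 reads, a log2 ratio of -0.54 (-0.67 to -0.42). Both UROS and UROD had intervals wholly below 0 but did not reach 2-fold.

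The last 3 synthesis steps are again mitochondrial. CPOX (chromosome 3, 98579446 to 98593723, minus strand) forms protoporphyrinogen in the intermembrane space. It had 603 and 695 reads, a log2 ratio of 0.28 (0.12 to 0.44). PPOX (chromosome 1, 161166410 to 161178013, plus strand) oxidises that product at the inner membrane. It had the fewest reads of the 9, 152 and 124, and its log2 ratio of -0.21 (-0.57 to 0.14) was within counting error of 0. Its reads are also the least certain. B4GALT3, on the opposite strand, shares 24.3% of the PPOX exon length, and it is not stated whether counting used strand. B4GALT3 itself had 666 and 818 reads. FECH (chromosome 18, 57548283 to 57586772, minus strand) is ferrochelatase, which carries an iron-sulfur cluster and inserts iron. It had 463 and 396 reads, a log2 ratio of -0.15 (-0.34 to 0.05), also within counting error of 0. The annotated pseudogene FECHP1 had no read.

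The synthesis enzymes differed among themselves in their ratios. The ratio of ALAS1 was compared with that of each other synthesis enzyme by an exact conditional interval of the ratio of ratios. It exceeded all 6, from 1.53-fold against CPOX (1.35 to 1.73) to 3.23-fold against UROS (2.91 to 3.58). Of the 21 pairs among the 7 enzymes, 16 had intervals that excluded 1, with counting error alone considered and no adjustment over pairs. The 5 pairs that could not be separated were ALAD with CPOX, PPOX and FECH, UROD with PPOX, and PPOX with FECH. By compartment, the 4 mitochondrial enzymes had 3084 and 4504 reads in sum and the 3 cytosolic ones 3189 and 1996. ALAS1 supplied most of the first sum, and the rise in that sum lay in ALAS1 (1866 and 3289 reads). Of the 4 mitochondrial enzymes, 2 had log2 ratios above 0 and 2 below, and of the 3 cytosolic ones 1 and 2.

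HMOX1 (ENSG00000100292, chromosome 22, 35380361 to 35394214, plus strand) went from 170 to 2143 reads, or 11.04 to 147 CPM. It was 13.3-fold higher after DHA (11.4 to 15.7), and 99.88% of tested genes had a smaller ratio. HMOX2 (ENSG00000103415, chromosome 16, 4474690 to 4510347, plus strand) had 215 and 417 reads, or 13.97 and 28.6 CPM. It was 2.05-fold higher (1.73 to 2.43), and 93.9% of tested genes had a smaller ratio. The call of HMOX2 sits on the threshold: its log2 ratio was 1.03, but 0.99 with DESeq2 size factors and 0.97 with upper-quartile scaling, both under 2-fold. NMRAL1, on the opposite strand, shares 6.01% of the HMOX2 exon length and had a log2 ratio of -0.60. The HMOX1 ratio was 6.49 times that of HMOX2 (5.15 to 8.21). The ALAS1 ratio was 0.140 times that of HMOX1 (0.118 to 0.165).

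Levels of different genes were compared per kilobase of exon (RPKM, the CPM divided by the deposited exon length in kilobases). ALAS1 had the highest level of the 9 in both libraries, 47.8 and 89.0. In the untreated library UROD followed with 30.5, then CPOX with 12.1, UROS with 10.6 and FECH with 6.72. HMOX1 and HMOX2 came next at 4.59 and 3.68, with ALAD at 3.48 and PPOX last at 2.14. Neighbours in this order differed beyond counting error except HMOX2 and ALAD. In the DHA library HMOX1 was second at 61.1. UROD had 20.9, CPOX 14.8, HMOX2 7.54, UROS 6.12, FECH 6.07, ALAD 3.57 and PPOX 1.85, and only UROS and FECH could not be separated from each other.

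**Figure D2:**
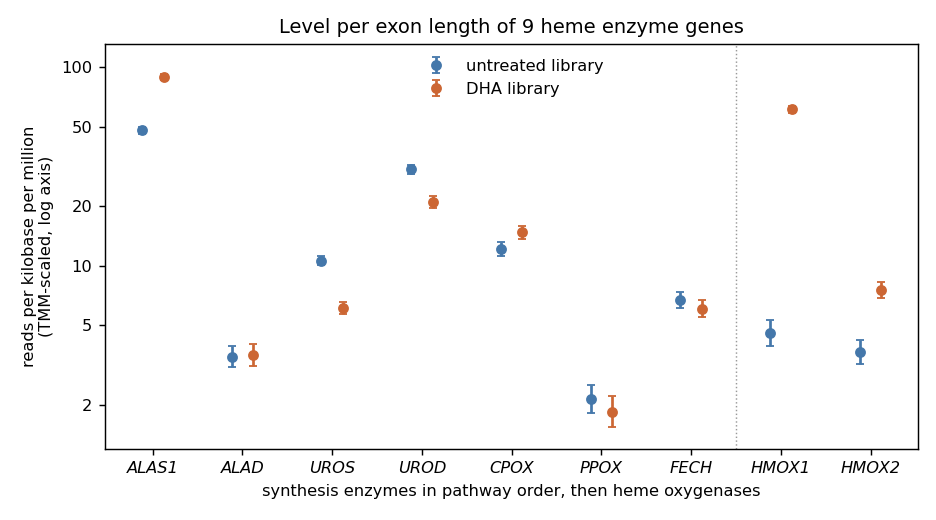
RPKM (TMM-scaled reads per kilobase of exon, log axis) of the 9 heme enzyme genes in the untreated and the DHA library, with exact 95% Poisson intervals of the counts. ALAS1 is highest in both libraries, and HMOX1 moves from 4.59 to 61.1, above every synthesis enzyme but ALAS1.

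The spread between the highest and the lowest synthesis enzyme was 22.3-fold without and 48.2-fold with DHA by deposited length, ALAS1 over PPOX in both cases. ALAS1 over the final enzyme FECH was 7.11 (6.42 to 7.89) in the untreated and 14.7 (13.2 to 16.3) in the DHA library. The summed level of the 7 enzymes was 113 and 142, of which ALAS1 made up 42.2% and 62.6%. The summed level of the heme oxygenases was 8.27 and 68.7. HMOX1 made up 55.5% (50.3 to 60.5) of it in the untreated library and 89.0% (87.9 to 90.0) in the DHA library. HMOX1 relative to ALAS1 was 0.0961 (0.0816 to 0.113) and 0.687 (0.650 to 0.726), so that ALAS1 RNA still exceeded HMOX1 RNA per length after DHA.

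Exon length affects this order. The deposited length is the union of all annotated exons, which for UROS is 9532 bases, whereas its longest protein-coding transcript has 3188. With the longest protein-coding transcript as the length, a choice made after the data were seen, UROD (68.3) stood above ALAS1 (49.9) in the untreated library and UROS came next at 31.7. In the DHA library ALAS1 (92.9) and HMOX1 (80.7) were again the highest pair, with UROD at 46.8. The spread over the synthesis enzymes was then 12.5-fold in the untreated library, UROD over ALAD, and 19.0-fold in the DHA library, ALAS1 over PPOX. Their summed level was 183 and 192, of which ALAS1 made up 27.3% and 48.3%. HMOX1 then made up 48.2% and 85.8% of the heme oxygenase level.

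Genomic neighbours were used to see whether a difference was shared along the chromosome. For each member the nearest protein-coding gene with at least 50 reads on each side was taken. HMOX1 lies between TOM1, an endosomal trafficking gene 32367 bases away, and MCM5, a replication helicase gene 5849 bases away. TOM1 had 246 and 452 reads, a log2 ratio of 0.96 (0.73 to 1.19). MCM5 had 1375 and 462 reads and was lower, at -1.49 (-1.65 to -1.34). Neither flanking gene had a ratio as large as that of HMOX1, though the ratio of TOM1 was also above 0 on the log2 scale. A common cause along the region was not tested. Around ALAS1, POC1A and TWF2 had log2 ratios of 0.06 and -0.09. UROD lies 818 bases from HECTD3 and 824 from ZSWIM5, which had 0.17 and -0.43. UROS lies 261 bases from BCCIP, which had -0.21, and EDRF1 on its other side had 0.38. Of the 18 neighbours, CLDND1 beside CPOX was called higher (1.18), and ONECUT2 beside FECH (-1.06) and MCM5 were called lower, or 1 higher and 2 lower against 6.72% and 10.3% of all genes tested.

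**Figure D3:**
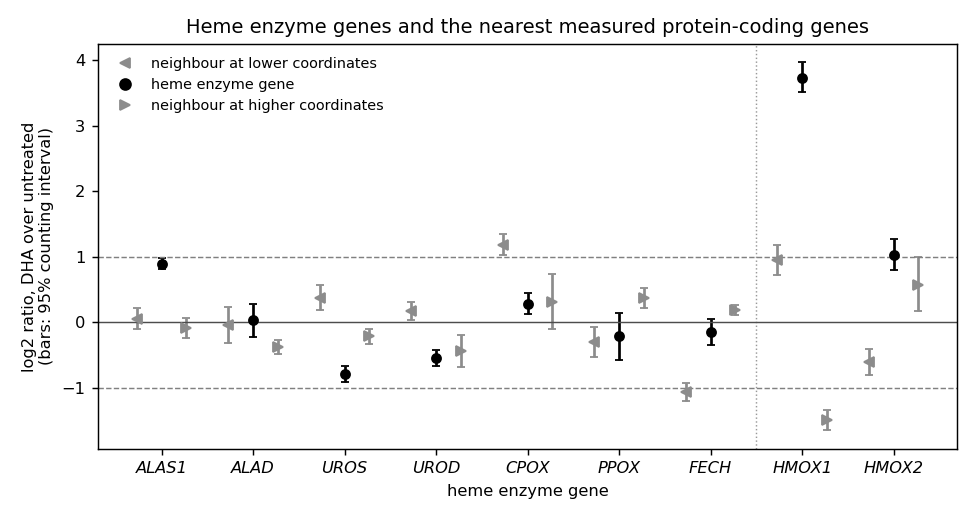
Log2 ratio of DHA to untreated for each heme enzyme gene (circle) and the nearest protein-coding genes with at least 50 reads at lower and higher coordinates (triangles), with 95% counting intervals. HMOX1 at 3.73 lies between neighbours at 0.96 and -1.49.

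Few genes had a response like that of HMOX1. Among 4086 protein-coding genes with a mean CPM within 2-fold of it, 2 had a higher ratio. The nearest by log2 ratio were PLAUR, the urokinase receptor gene (3.59, 244 and 2779 reads), OSGIN1, an oxidative stress gene (4.15, 130 and 2200 reads), and PPP1R15A, which encodes a regulatory subunit of the phosphatase acting on eIF2 alpha (4.25, 191 and 3453 reads). They differed from HMOX1 by 0.15, 0.42 and 0.52 on the log2 scale. For ALAS1, 152 of 2134 genes of like level had a higher ratio. The nearest were DNTTIP1, OS9 and PCYT1A, all at 0.90, each within 0.00043 of ALAS1. Likeness here rests on 2 libraries, so it is 1 number per gene.

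Other genes of heme handling were taken as a list of 28, of which 25 had enough reads. Of these 1 was called higher and 0 lower, against 6.72% and 10.3% of all genes tested. Their median log2 ratio was -0.11, beside 0.04 over all genes tested. Earlier results of these data were known when this list was chosen, so its counts describe the listed genes alone. FLVCR2, a heme and choline transporter gene, had 18 and 56 reads and was 3.23-fold higher (1.90 to 5.94). It met the minimum of 50 reads through the DHA library alone, so its call is no support for a change in the list. Among genes of mitochondrial iron-sulfur cluster assembly, the scaffold gene ISCU had 0.51, the desulfurase gene NFS1 0.23, LYRM4 -0.16 and the glutaredoxin gene GLRX5 -0.62 on the log2 scale.

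SLC25A38, which carries glycine into mitochondria for the ALAS reaction, had 570 and 1009 reads and a log2 ratio of 0.90 (0.75 to 1.05). The value is close to that of ALAS1 and, as for ALAS1, passed 2-fold once that trend over length and GC was taken out (1.02). SLC48A1, which exports heme from lysosomes, had 0.75 (0.57 to 0.93). Mitochondrial iron importer genes SLC25A37 and SLC25A28 had 0.59 and 0.09. The protease gene LONP1 and the unfoldase gene CLPX, both acting on ALAS1 protein, had 0.56 (0.47 to 0.66) and 0.21 (0.07 to 0.34). The reductases that follow heme oxygenase had ratios of opposite sign, and neither was called. BLVRA, which reduces biliverdin to bilirubin, had 1417 and 827 reads, a log2 ratio of -0.70 (-0.82 to -0.57). BLVRB, a reductase of biliverdin and flavins, had 472 and 693 reads, a log2 ratio of 0.63 (0.46 to 0.80). All 4 heme-binding genes (HEBP1, HEBP2, PGRMC1 and PGRMC2) had log2 ratios below 0, as had 5765 of the 12064 genes tested, and none was called. HEBP2 had -0.33 (-0.46 to -0.21) and PGRMC1 -0.19 (-0.29 to -0.09). The intervals of HEBP1 (-0.26 to 0.04) and PGRMC2 (-0.25 to 0.01) included 0.

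Regulators of HMOX1 and ALAS1 formed a list of 11, of which 10 had enough reads. Of these 4 were called higher, against 6.72% of all genes, and 0 lower. Their median log2 ratio was 0.63, beside 0.04 over all genes tested. Because the list was chosen with earlier results of these data known, these values describe the listed genes alone. NFE2L2 (NRF2) and BACH1, a repressor that heme inactivates, both act on antioxidant response elements as dimers with small MAF proteins. The small MAF genes were all called. MAFF had 98 and 563 reads and was 6.04-fold higher (4.89 to 7.60). MAFK had 294 and 1003 reads and was 3.60-fold higher (3.16 to 4.12), with 18.1% of its exon length shared on the opposite strand. MAFG had 978 and 2750 reads and was 2.97-fold higher (2.76 to 3.20). ATF4, the transcription factor of the integrated stress response, was 2.80-fold higher (2.66 to 2.94). Their partners differed less. BACH1 had 457 and 690 reads, a log2 ratio of 0.67 (0.50 to 0.85), and NFE2L2 1422 and 2037 reads, 0.60 (0.50 to 0.70). Of the NFE2L2 exon length, 17.6% is shared on the same strand. The NFE2L2 inhibitor gene KEAP1 had 1287 and 1544 reads, 0.34 (0.23 to 0.45). Of the genes linked to ALAS1 transcription, NRF1 had -0.10, FOXO1 -0.32 and the coactivator gene PPARGC1B -0.62 (-0.93 to -0.32). PPARGC1A had 9 and 14 reads, too few for the rule.

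**Figure D4:**
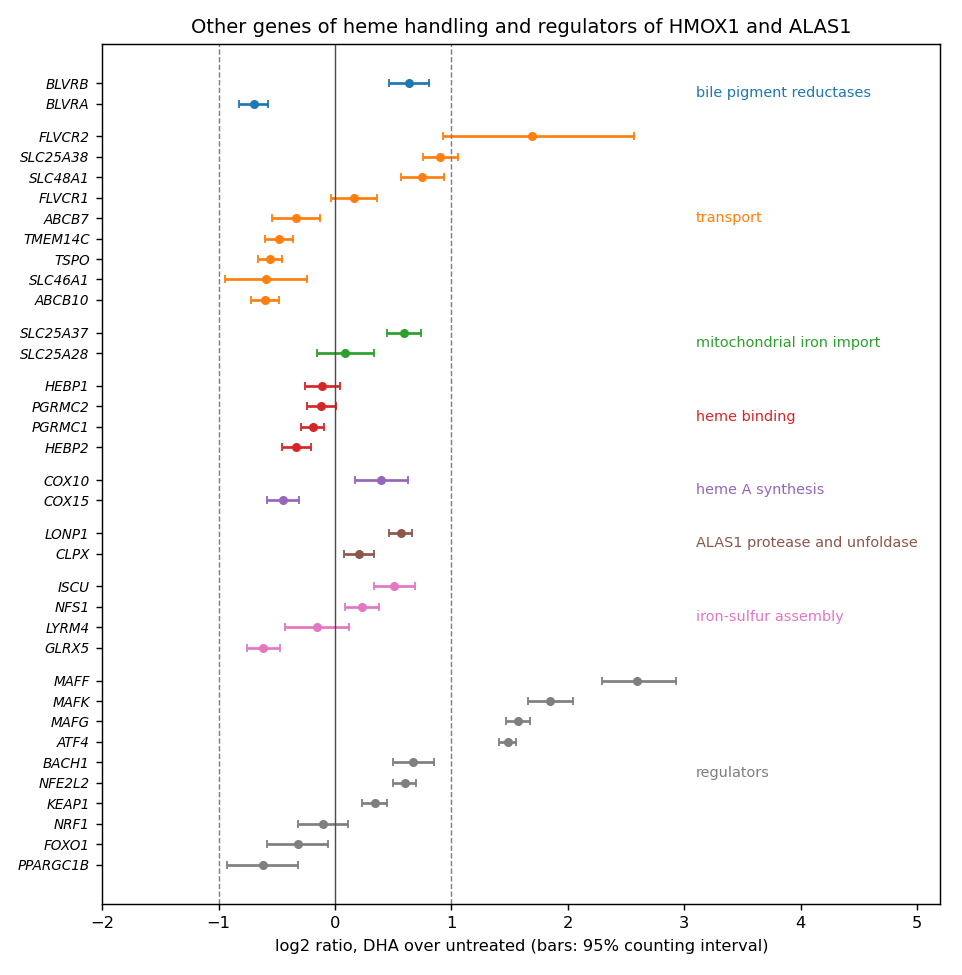
Log2 ratio of DHA to untreated, with 95% counting intervals, for the other genes of heme handling by role and the regulators of HMOX1 and ALAS1 that had at least 50 reads in 1 library; dashed lines mark 2-fold. MAFF, MAFK, MAFG, ATF4 and FLVCR2 lie above the upper line.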

How the data were processed

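The authors deposited whole-number read counts by gene, not normalized, with a gene length in bases for each row. Per the labels' protocols, Trizol RNA went into Illumina libraries. No source used here names the aligner, the counting tool or its use of strand. The submitters' processing notes list the mouse build mm8, but all 58735 rows matched identifiers, coordinates and exon lengths of human GENCODE release 29 (GRCh38). NC was taken as untreated.

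Counts were scaled by TMM (edgeR 4.0.16, R 4.3.3; factors 0.996 and 1.00). Ratios used 0.5 added reads, and 95% intervals came from the Clopper-Pearson interval of the share of reads in the DHA library. These intervals cover counting error only, because each group has 1 library. PCR copies are not independent, which the intervals do not take into account. A count of 0 allows up to 3 reads, or 0.195 and 0.206 CPM. Levels per length carry exact Poisson intervals (scipy 1.17.1). GC content came from the longest transcript of each gene, and the trend was a loess surface with a span of 0.5. Alternatives covered scaling (DESeq2 1.42.0 among them), read minimum, pseudocount, fold, interval, gene type and this trend. Promoter windows are from RefSeq.

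Named genes were all members, the called genes of each list with up to 3 more by size of log2 ratio, and the 3 genes nearest to HMOX1 and to ALAS1. Genomic neighbours and BLVRB, KEAP1, LONP1, CLPX, ISCU, NFS1, LYRM4, GLRX5, SLC25A37, SLC25A28, NRF1, FOXO1, PPARGC1A, the heme-binding and marker genes, CYCS, CYC1, EIF2AK1, POR and the promoter motifs were named after their values were seen. Some genes of the lists are not reported here and stayed out of their counts. Members and lists were chosen with earlier results of these data known.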

Additional observations from a re-analysis of the deposited data

How the results depend on the processing

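No paired analysis was possible because each group has 1 library. Of the 2 members called higher, 1 was left with DESeq2 size factors, upper-quartile scaling, a minimum of 500 reads and a 3-fold threshold. Of all genes tested, 5.99%, 5.69%, 6.58% and 1.82% were higher under these settings, in that order. With the trend over length and GC taken out, 3 members were higher, ALAS1 among them, against 7.1% of all genes tested. At 1.5-fold, ALAS1 was also called higher and UROS lower, so that 1 member was lower. In the heme handling list 5 genes were then higher and 4 lower, where 18.9% of all genes tested were higher and 19.2% lower. Without the trend over length and GC the heme handling list had 2 genes higher, against 7.1% of all genes tested. It had 0 higher at 500 reads, against 6.58%. Over all genes, 1297 were higher and 2126 lower at a minimum of 10 reads, 431 and 379 at 500 reads, 1432 and 2386 at 1 read, 2284 and 2320 at 1.5-fold and 219 and 556 at 3-fold. The HMOX1 share of the heme oxygenase level was 44.2% and 83.7% in reads without length, and 48.2% and 85.8% with the longest coding transcript. The median log2 ratio of the synthesis members lay between -0.21 (upper-quartile scaling) and -0.12 (trend taken out) under all 13 alternatives. At 500 reads it rested on 4 members. Member log2 ratios kept their sign except for ALAD (-0.03 to 0.05), and ranged from 3.67 to 3.87 for HMOX1, 0.97 to 1.07 for HMOX2 and 0.83 to 1.03 for ALAS1. Upper-quartile scaling lowered all log2 ratios by 0.065 and the share of higher among called genes to 33.8% from 39.4%. At 500 reads, that share was 53.2%, at 1.5-fold 49.6% and at 3-fold 28.3%. Variation between cultures was not measured, so the calls cover counting error alone.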

Other observations

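Genes of proteins that carry heme, or work with such proteins, were taken as a list of 28. The list was chosen with earlier results of these data known, so its counts describe the listed genes alone. Of these, 20 had 50 or more reads in either library. Among the 20, 1 was called higher and 5 lower (6.72% and 10.3% of all genes tested). Their median log2 ratio was -0.31, beside 0.04 over all genes tested. The cytochrome b5 genes of both membranes were lower. CYB5B, the form of the outer mitochondrial membrane, had 11332 and 3569 reads and was 3.01-fold lower (2.90 to 3.12), and another gene on the same strand covers 35.1% of its exons. CYB5A, the form of the endoplasmic reticulum, had 274 and 88 reads and was 2.94-fold lower (2.31 to 3.79). The cytochrome P450 genes CYP27A1, a sterol hydroxylase, and CYP1B1 were 3.61-fold (3.11 to 4.22) and 2.21-fold (1.69 to 2.93) lower, and the ferrireductase gene STEAP3 3.02-fold (2.75 to 3.33).

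CYP51A1, the sterol demethylase, was 3.32-fold higher at 21 and 67 reads. It met the read minimum through the DHA library alone, and another gene covers 79.4% of its exons. The catalase gene CAT had 806 and 384 reads, a log2 ratio of -0.99 (-1.17 to -0.81), and passed 2-fold with DESeq2 size factors (-1.03), upper-quartile scaling (-1.06) and protein-coding genes alone (-1.01). The heme-sensing nuclear receptor genes of the circadian clock, NR1D1 and NR1D2, had log2 ratios of 0.93 (0.71 to 1.15) and 0.97 (0.84 to 1.10). With the trend over length and GC taken out NR1D1 passed 2-fold (1.03), and NR1D2 did not (0.92). The respiratory cytochrome genes CYCS and CYC1 had 0.15 and -0.16. POR, the reductase that passes electrons to cytochromes P450 and to heme oxygenases, had 1943 and 2393 reads, a log2 ratio of 0.38 (0.29 to 0.47). EIF2AK1, which encodes the heme-regulated kinase HRI, had 3911 and 3028 reads, a log2 ratio of -0.29 (-0.36 to -0.22).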
